A study of Mus musculus with 14 samples.

Results

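The genes described here are 9 genes of the lipid-associated macrophage programme: *Gpnmb*, *Trem2*, *Tyrobp*, *Cd9*, *Mmp12*, *Lgals3*, *Cd68*, *Msr1* and *Clec7a*. They were chosen by symbol from the deposited count table, as 9 of its 25212 genes, because *Gpnmb* and *Mmp12* were higher after bile diversion. The choice therefore used the comparison of GB-IL with DIO livers, and everything given for the 9 genes in that comparison is a description without a test. All 9 were detected in each of the 14 livers and all 9 passed the filter on low counts that left 14252 genes to test, although a gene can pass that filter through the GB-IL livers alone. *Gpnmb* did not pass it in a fit of the RYGB and DIO livers alone.

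The livers came from male C57BL/6 mice that had become obese on a high-fat diet (HFD), begun in young mice weeks before any operation. DIO, or diet-induced obese, mice (n = 5) had no surgery, and no sham-operated liver is among the samples. In GB-IL mice (n = 4) the common bile duct was tied and the gallbladder joined to the ileum, so that bile reached the distal small bowel, and RYGB mice (n = 5) had Roux-en-Y gastric bypass, which divides the stomach and reroutes food. All livers were taken at 8 weeks, 1 library per liver, so that the replicates are separate mice. The labels name no transgene, and all 3 groups shared the diet.

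Lipid-associated macrophages are macrophages that collect where lipid or dying cells accumulate, for instance in obese adipose tissue and fatty liver. Their defining receptor, *Trem2*, binds lipids and lipoproteins and has no signalling tail of its own. It signals through the adaptor DAP12, the product of *Tyrobp*, whose tyrosine motif (ITAM) recruits the kinase Syk, and the programme that follows includes lysosomal, lipid-handling and matrix-degrading genes. Most of these genes are not exclusive to such cells: *Cd9* and *Lgals3*, for example, are also expressed by bile duct and other cells. Here RNA came from whole liver, where more cells of a type and more RNA per cell cannot be told apart, and the name of the programme is used only for the set of genes.

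Total counts ran from 18223135 to 28656631 per liver. Along the first principal component (48.5% of variance) GB-IL livers 1 and 2 lay far from every other liver (scores of 134 and 106) and GB-IL liver 3 nearer (20.1). GB-IL liver 4 (-35.3) fell among the DIO livers, whose scores ran from -45.7 to -21.9. Results that rest on these livers are therefore given liver by liver. Albumin (*Alb*) and the other 7 hepatocyte markers summed to 117442 to 147967 CPM in DIO, 91436 to 121400 CPM in GB-IL and 114911 to 135179 CPM in RYGB. Most of the sum was *Alb*. In GB-IL livers 1 and 2 *Alb*, *Ttr* and *Cyp2e1* were under their DIO ranges, *Apoa1* and *Tat* above, and *Cps1* and *Hnf4a* inside. *Serpina1a* was under its range in liver 1 and above it in liver 2. CPM here are read counts scaled by TMM to a common library size.

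Some start-site regions are shown first, because *Gpnmb* and *Mmp12* set the choice and *Trem2* is the receptor at the head of the programme. RefSeq (GRCm38.p6) gave windows from 250 bases before to 50 bases after a start site for 7 of the 9 genes, 9 windows in all. Those of *Gpnmb*, *Trem2* and *Mmp12* are printed, 5′ to 3′ on the strand of the gene, and the others are only described. Capitals mark matches, on either strand, to 6 short motifs: AP-1 (TGANTCA), the PU.1 core (GAGGAAG), C/EBP (TTGCNNAA), the CATGTG core bound by MiT/TFE factors, CACGTG and TATAAA. No 2 matches overlapped in the windows printed.
*Gpnmb* (chr6:49036268-49036567, plus strand): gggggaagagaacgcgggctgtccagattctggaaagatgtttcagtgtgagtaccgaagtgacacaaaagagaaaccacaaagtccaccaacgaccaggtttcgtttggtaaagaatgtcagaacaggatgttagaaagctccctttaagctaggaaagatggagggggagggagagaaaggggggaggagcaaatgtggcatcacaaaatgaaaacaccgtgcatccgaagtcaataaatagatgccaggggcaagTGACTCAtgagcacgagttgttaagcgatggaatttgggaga
*Trem2* (chr17:48346151-48346450, plus strand): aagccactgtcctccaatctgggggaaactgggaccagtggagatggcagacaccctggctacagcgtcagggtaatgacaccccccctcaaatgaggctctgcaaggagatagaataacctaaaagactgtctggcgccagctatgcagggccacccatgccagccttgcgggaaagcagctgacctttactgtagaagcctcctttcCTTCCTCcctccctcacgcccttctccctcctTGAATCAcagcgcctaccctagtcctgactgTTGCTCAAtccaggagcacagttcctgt
*Mmp12*, first window (chr9:7344147-7344446, plus strand): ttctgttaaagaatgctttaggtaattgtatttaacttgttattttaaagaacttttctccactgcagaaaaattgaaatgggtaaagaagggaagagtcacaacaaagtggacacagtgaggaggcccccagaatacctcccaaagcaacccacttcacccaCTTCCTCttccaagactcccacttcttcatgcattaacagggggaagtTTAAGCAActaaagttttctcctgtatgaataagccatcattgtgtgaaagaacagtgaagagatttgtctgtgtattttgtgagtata
*Mmp12*, second window (chr9:7347124-7347423, plus strand): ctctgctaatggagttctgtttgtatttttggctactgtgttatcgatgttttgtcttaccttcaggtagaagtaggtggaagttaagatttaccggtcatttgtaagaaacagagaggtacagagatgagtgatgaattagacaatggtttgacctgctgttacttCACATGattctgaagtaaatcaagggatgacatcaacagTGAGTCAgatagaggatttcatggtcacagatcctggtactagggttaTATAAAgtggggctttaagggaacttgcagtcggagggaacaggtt

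An AP-1 match, the sequence that Fos and Jun proteins bind, stood in windows of 4 of the 7 genes (*Gpnmb*, *Trem2*, *Mmp12* and *Cd68*), in 4 of the 9 windows. The same letters were present in 7.81% of all 32851 promoter windows of this length. In *Gpnmb* it was the only match and began at base 9 after the start site, in *Trem2* it began 9 bases before it (-9), and in the second *Mmp12* window at -44. A PU.1 core, the mark of the myeloid factor PU.1, was present in *Trem2* (-41) and the first *Mmp12* window (-87) and in 13.6% of all windows. The C/EBP letters were in *Cd68*, *Mmp12* and *Trem2* (10.8% of all windows), CATGTG in *Cd9* and *Mmp12* (14.2%), TATAAA in *Clec7a* and *Mmp12* (13.6%), and CACGTG in none of the 9 windows (7.15%). These matches describe letters in the windows and not binding.

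Of the 9 genes, *Gpnmb* differed most between livers. It encodes a transmembrane glycoprotein of endosomes and lysosomes that is switched on in phagocytes loaded with lipid. *Gpnmb* (ENSMUSG00000029816, GRCm38 chromosome 6, 49036546 to 49070929) was at 0.314, 0.295, 0.661, 0.339 and 0.24 CPM in DIO livers 1 to 5, which were 5 to 13 reads per liver. In GB-IL livers 1 to 4 it was at 210.3, 91.5, 16.5 and 0.775 CPM. In RYGB livers 1 to 5 it was at 0.82, 0.345, 1.30, 0.414 and 3.63 CPM. Every GB-IL liver exceeded the DIO range, but liver 4 was only just above the highest of them, and the 4 GB-IL livers themselves spread more widely than any other group. The mean ± SD was thus 0.37 ± 0.167 CPM over the 5 DIO livers, 79.8 ± 95.6 CPM over the 4 GB-IL livers and 1.30 ± 1.36 CPM over the 5 RYGB livers. The fitted log2 fold change of GB-IL against DIO was 7.73 (standard error 1.23), a fold of 212. Without GB-IL liver 1 the log2 fold change was 6.60 and without liver 4 it was 8.13.

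The receptor and its adaptor followed with smaller differences. *Trem2* (chromosome 17, 48346401 to 48354147) was at 2.72, 1.97, 4.58, 1.08 and 1.92 CPM in DIO livers 1 to 5 and at 14.03, 21.2, 4.11 and 2.58 CPM in GB-IL livers 1 to 4. Only GB-IL livers 1 and 2 lay above every DIO liver; the log2 fold change was 2.09 (standard error 0.532). In RYGB livers 1 to 5 *Trem2* was at 2.52, 1.92, 2.08, 2.03 and 3.36 CPM, all within the DIO range. *Tyrobp* (chromosome 7, 30413760 to 30417585), which encodes DAP12 and serves many other myeloid receptors besides, was at 14.9, 15.9, 22.5, 13.98 and 11.6 CPM in DIO livers and at 48.4, 69.4, 59.3 and 20.7 CPM in GB-IL livers. Here GB-IL livers 1 to 3 lay above every DIO liver and liver 4 within their range, for a log2 fold change of 1.65 (standard error 0.333). RYGB livers had 29.8, 13.02, 13.7, 12.5 and 17.5 CPM of *Tyrobp*, so that RYGB liver 1 alone exceeded the DIO range.

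*Clec7a* (chromosome 6, 129461591 to 129472779) encodes dectin-1, a receptor for fungal β-glucan that reaches Syk and Card9 through its own tail. It was at 6.65, 6.003, 9.06, 4.19 and 3.85 CPM in DIO livers and at 16.1, 11.0, 15.7 and 8.60 CPM in GB-IL livers, with a log2 fold change of 1.11 (standard error 0.27). RYGB livers had 4.98, 3.30, 5.56, 4.63 and 4.64 CPM, and *Clec7a* was 1 of 2 members, with *Trem2*, whose fitted value was lower after RYGB than in DIO. All 4 GB-IL livers lay above every RYGB liver.

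The scavenger receptor and the lysosomal marker were abundant in every group and differed by small folds. *Msr1* (chromosome 8, 39581685 to 39642673), scavenger receptor A, takes up modified lipoproteins. It was at 12.0, 13.9, 13.2, 9.45 and 8.08 CPM in DIO livers, at 16.0, 26.3, 32.1 and 16.0 CPM in GB-IL livers and at 19.6, 9.77, 14.998, 11.7 and 20.8 CPM in RYGB livers. The GB-IL and DIO livers did not overlap, although the log2 fold change of 1.00 (standard error 0.273) was the smallest of the 9. *Cd68* (chromosome 11, 69664213 to 69666153), a glycoprotein of macrophage late endosomes, was at 11.5, 14.4, 19.3, 14.4 and 10.7 CPM in DIO livers and at 38.1, 46.0, 40.4 and 17.3 CPM in GB-IL livers. GB-IL livers 1 to 3 were close together and above all DIO livers, liver 4 was inside their range, and the log2 fold change was 1.33 (standard error 0.28). RYGB livers had 24.7, 13.1, 13.98, 12.5 and 18.0004 CPM of *Cd68*.

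*Lgals3* (chromosome 14, 47367751 to 47386160) encodes galectin-3, a secreted and cytosolic lectin that also gathers on damaged lysosomes. It was at 7.17, 6.94, 11.2, 7.30 and 6.15 CPM in DIO livers and at 59.9, 80.8, 36.8 and 10.2 CPM in GB-IL livers, with a log2 fold change of 2.59 (standard error 0.53). Again livers 1 to 3 lay above the DIO range and liver 4 inside it. RYGB livers had 19.1, 4.59, 7.04, 6.33 and 20.3 CPM, so that RYGB livers 1 and 5 exceeded every DIO liver and RYGB liver 2 was below them all. *Cd9* (chromosome 6, 125460266 to 125494791), a tetraspanin that organizes membrane proteins, was at 19.8, 13.8, 9.36, 12.1 and 7.74 CPM in DIO livers, at 74.1, 59.5, 28.8 and 10.3 CPM in GB-IL livers and at 17.1, 26.2, 19.1, 14.2 and 52.0 CPM in RYGB livers. GB-IL exceeded DIO by 1.78 on the log2 scale (standard error 0.496), and RYGB livers 2 and 5 also lay above every DIO liver. A gene on the opposite strand, Gm26728, shares 218 exonic bases with *Cd9*, and the strand setting of the counting was not given in the sources used here.

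*Mmp12* (chromosome 9, 7344381 to 7369499), macrophage elastase, cleaves elastin and other matrix proteins. It had the tightest DIO values of the 9, at 1.57, 1.72, 1.63, 1.53 and 1.44 CPM, and GB-IL livers 1 to 4 had 23.8, 16.9, 5.34 and 2.32 CPM. The groups did not overlap, and the log2 fold change was 2.93 (standard error 0.501). RYGB livers had 2.46, 1.68, 2.71, 3.02 and 3.50 CPM, and 4 of the 5 lay above every DIO liver. *Mmp1b* on the opposite strand shares 157 exonic bases with *Mmp12*.

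**Figure D1:**
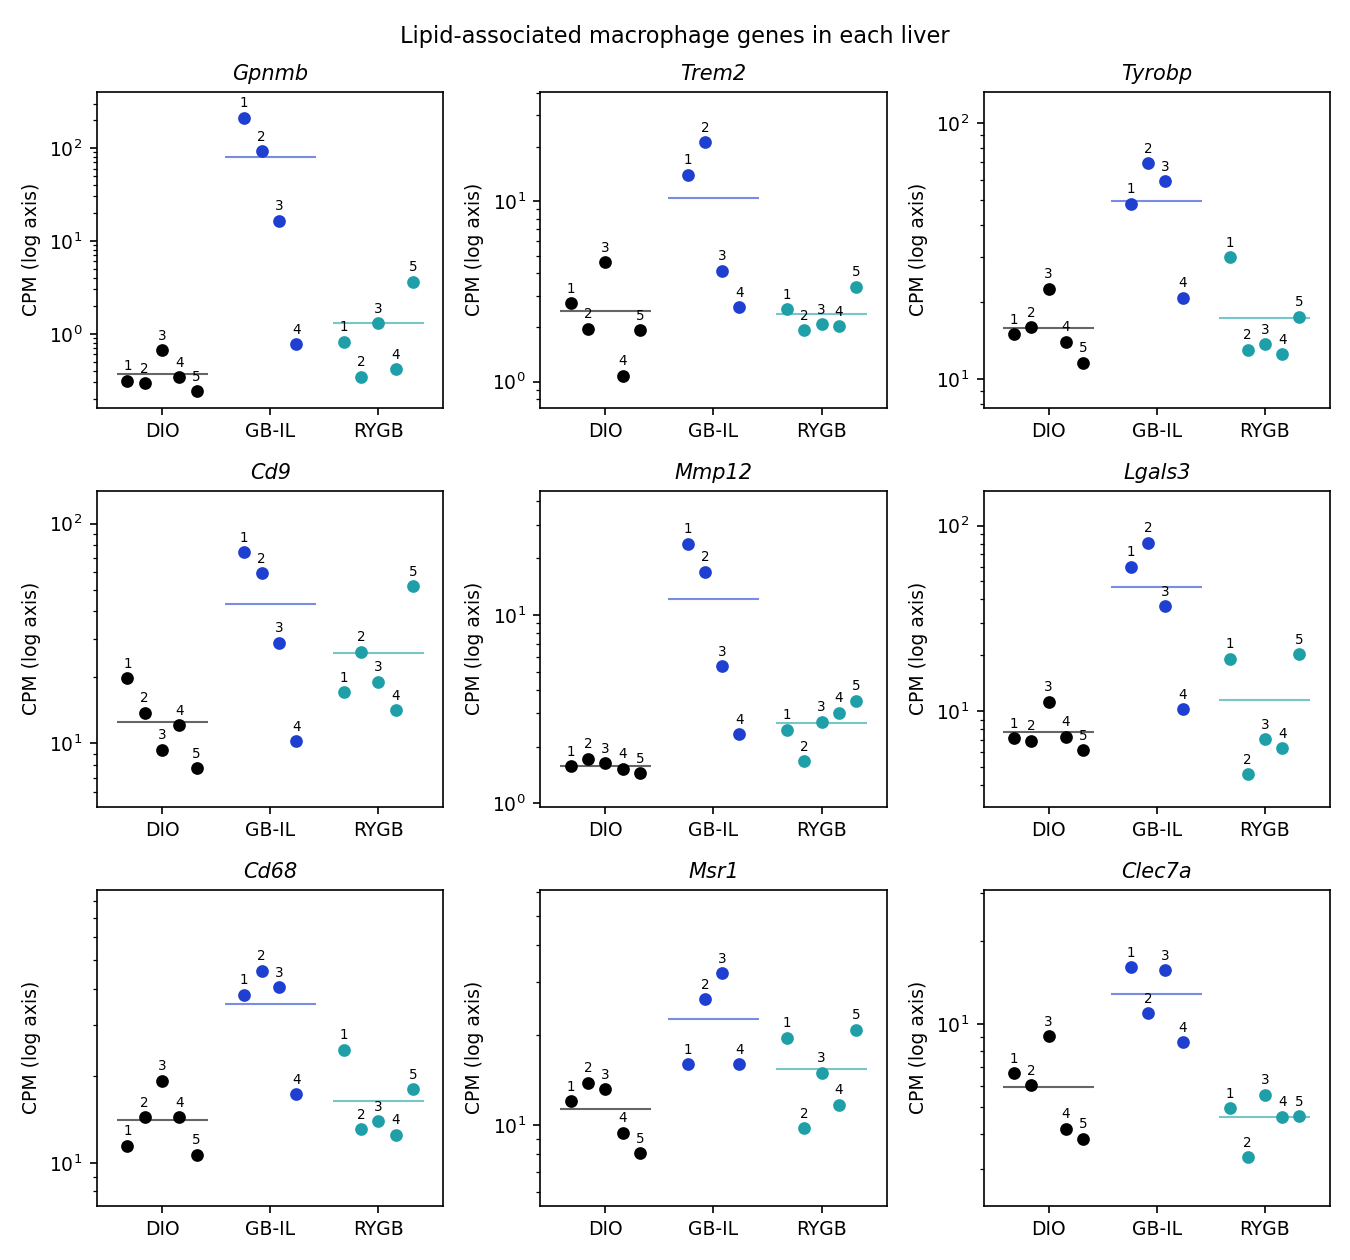
Each panel plots the CPM of 1 gene, on a log axis, in each liver of the DIO (black), GB-IL (blue) and RYGB (teal) groups, with the liver's number above its point and a line at the group mean. GB-IL liver 4 is the lowest GB-IL liver for all 9 genes, and *Gpnmb* spans 0.775 to 210.3 CPM among the GB-IL livers.

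Read down the livers, the values below again come from the comparison that chose the genes. The share of all genes above the DIO range in a single liver was not counted. Nothing particular to the 9 genes is therefore read from the counts below. GB-IL livers 1 and 2 were above the whole DIO range for 9 of 9 genes, GB-IL liver 3 for 8 of 9, with *Trem2* the exception, and GB-IL liver 4 for 3 of 9, *Gpnmb*, *Mmp12* and *Msr1*, with the other 6 inside the DIO range. GB-IL liver 4 was the lowest of its group for all 9 genes. The order among the top livers was not shared: *Gpnmb*, *Mmp12*, *Cd9* and *Clec7a* were highest in liver 1, *Trem2*, *Tyrobp*, *Lgals3* and *Cd68* in liver 2, and *Msr1* in liver 3. RYGB liver 5 was the highest RYGB liver for 6 of the 9 genes.

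Per kilobase of exon, which allows genes to be set against each other (RPKM over all annotated exons), *Tyrobp* was the most abundant member in DIO livers at a mean of 23.7 RPKM. It was followed by *Cd68* (11.2 RPKM), *Cd9* (6.14), *Lgals3* (4.18), *Clec7a* (2.25), *Msr1* (1.78), *Trem2* (0.496), *Mmp12* (0.218) and *Gpnmb* (0.0568). *Gpnmb* was thus the lowest of the 9 in DIO. In GB-IL livers *Gpnmb* had a mean of 12.2 RPKM, behind *Tyrobp* (74.1), *Cd68* (28.2), *Lgals3* (25.3) and *Cd9* (21.1), and in RYGB it was again lowest at 0.20 RPKM. With SDs near the size of the mean for *Gpnmb*, *Trem2* and *Mmp12* in GB-IL, the order of neighbouring genes there is not resolved.

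At a false discovery rate (FDR) of 0.05 in edgeR (quasi-likelihood test, Benjamini-Hochberg), 7 of the 9 members were called higher in GB-IL than in DIO, all but *Cd9* and *Msr1*, where 3.15% of all tested genes were called higher. *Gpnmb*, *Mmp12* and *Msr1* (3 of 9) had GB-IL livers all above every DIO liver, as did 2.67% of all tested genes. The median log2 fold change was 1.78 over the 9 genes and 0.04 over all genes. These counts belong to the comparison that chose the genes, so nothing is read from them. They also rest on the livers in the fit: the count was 0 when GB-IL liver 1, GB-IL liver 2 or any DIO liver was left out and in a fit of the GB-IL and DIO livers alone, and 9 when GB-IL liver 4 was left out, where 24.6% of all genes were called in either direction.

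RYGB livers did not take part in the choice of the genes, though they were compared with the same DIO livers. None of the 9 genes passed the FDR of 0.05 between RYGB and DIO in the same edgeR fit, as none of all 14252 genes did (0% called). At an unadjusted p under 0.05 there was 1 of the 9, *Cd9* (log2 fold change 1.04, standard error 0.47, unadjusted p = 0.0436, adjusted p = 0.564 by edgeR), where 8.71% of all genes lay under it. DESeq2 called 0 of the 9 and 0.596% of all genes, and voom called 1 of the 9, again *Cd9*, and 11.9% of all genes. *Gpnmb* had the largest fitted difference, 1.84 on the log2 scale with a standard error of 1.14 (adjusted p = 0.673 by edgeR), with 3 of 5 RYGB livers above every DIO liver. It did not pass the filter on low counts in a fit of the RYGB and DIO livers alone. Its test here therefore depends on the GB-IL livers, which took part in the choice. The difference of *Gpnmb* fell to 0.99 without RYGB liver 5, and that of *Cd9* to 0.62. *Mmp12* followed *Gpnmb* and *Cd9*, at 0.76 on the log2 scale with a standard error of 0.47 (adjusted p = 0.673 by edgeR) and 4 of 5 livers above.

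The other 6 genes lay closer to 0 after RYGB. *Lgals3* (0.56), *Msr1* (0.44), *Cd68* (0.23) and *Tyrobp* (0.13) had positive log2 fold changes, and *Trem2* (-0.04) and *Clec7a* (-0.36) negative ones, with adjusted p between 0.657 and 0.985 by edgeR's quasi-likelihood test. No member had all RYGB livers above every DIO liver (0 of 9), against 1.87% of all tested genes. With standard errors of 0.258 to 0.506 on the log2 scale for these 6 genes, differences of that size could not be told from 0.

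**Figure D2:**
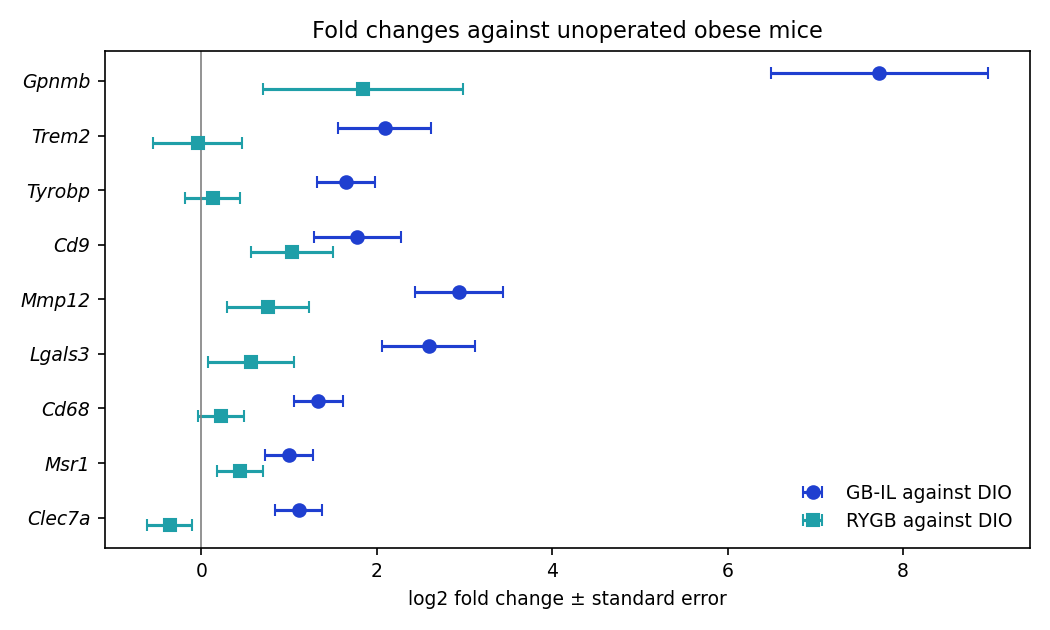
Fitted log2 fold changes (horizontal axis) of the 9 genes with bars of 1 standard error, for GB-IL against DIO (blue circles) and RYGB against DIO (teal squares). *Gpnmb* has the largest value in both, 7.73 and 1.84, and the RYGB values of *Trem2* and *Clec7a* lie below 0; both comparisons use the same 5 DIO livers.

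Set directly against each other, GB-IL livers had more of all 9 transcripts than RYGB livers by the fitted log2 difference: 5.89 for *Gpnmb*, 2.17 for *Mmp12*, 2.13 for *Trem2*, 2.03 for *Lgals3*, 1.52 for *Tyrobp*, 1.47 for *Clec7a*, 1.11 for *Cd68*, 0.74 for *Cd9* and 0.56 for *Msr1*. Since the GB-IL livers took part in the choice of the genes, this too is a description. edgeR's quasi-likelihood test called 0 of the 9 at an FDR of 0.05, in a comparison where it called 0% of all genes, and 7 of the 9 had an unadjusted p under 0.05, as did 22.1% of all genes. DESeq2 called 7 of the 9 and 5.44% of all genes, and voom called 3 of the 9 and 0.807% of all genes. Without GB-IL liver 4 edgeR called 7 of the 9 and 21.5% of all genes. *Clec7a* was the 1 member of the 9 whose GB-IL livers all exceeded every RYGB liver, which held for 1.27% of all genes tested.

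Markers that most macrophages share were higher in GB-IL livers too. The summed level of 8 pan-macrophage markers (*Adgre1*, *Csf1r*, *Aif1*, *Mpeg1*, *C1qa*, *C1qb*, *C1qc* and *Lyz2*) was 341 to 567 CPM in DIO, 853, 1304, 1802 and 661 CPM in GB-IL livers 1 to 4, and 362 to 717 CPM in RYGB. Each member was therefore also expressed as the log2 ratio of its CPM to that sum. For *Gpnmb* the ratio was -10.72 to -9.74 in DIO and -2.02, -3.83, -6.77 and -9.74 in GB-IL livers 1 to 4, a difference of means of 4.70. *Mmp12* (difference 1.11) and *Lgals3* (0.97) were also higher by their means, while *Trem2* (0.47), *Tyrobp* (0.24) and *Cd9* (0.20) differed less and *Cd68* (-0.04), *Clec7a* (-0.17) and *Msr1* (-0.35) were lower. The ratio separated the GB-IL livers from each other. For *Mmp12* it was -5.16 and -6.27 in livers 1 and 2, and -8.40 and -8.15 in livers 3 and 4, inside the DIO range of -8.44 to -7.88. For *Lgals3* it was -3.83, -4.01 and -5.61 in livers 1 to 3, above the DIO range of -6.17 to -5.64, and -6.02 in liver 4. Liver 4 was thus inside the DIO range for both. For *Trem2* it was -5.93 and -5.94 in livers 1 and 2, above the DIO range of -8.41 to -6.95, and -8.78 and -8.00 in livers 3 and 4.

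For RYGB against DIO the ratios could be tested, with the smallest p that 5 against 5 livers allow being 0.00794. By exact two-sided permutation tests none of the 9 passed after Benjamini-Hochberg adjustment over the 9 ratios. *Gpnmb* was 1.26 higher (p = 0.0397, adjusted p = 0.143, exact permutation test, 2 of 5 livers above every DIO liver). That ratio is for a gene that did not pass the filter on low counts in the RYGB and DIO livers alone. *Mmp12* was 0.62 higher with 4 of 5 livers above, and *Msr1* 0.31 higher with 3 of 5 above, each with an exact permutation p of 0.0476 and an adjusted p of 0.143. *Clec7a* was 0.42 lower on the log2 scale by its means of -6.67 in RYGB and -6.26 in DIO, with 3 of 5 livers below every DIO liver (exact permutation p = 0.0794, adjusted p = 0.179). *Cd9* was 0.84 higher (exact permutation p = 0.111, adjusted p = 0.20). For *Trem2*, *Tyrobp*, *Lgals3* and *Cd68* the exact permutation p was between 0.333 and 0.96. Without RYGB liver 5 the difference of *Gpnmb* was 0.78.

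**Figure D3:**
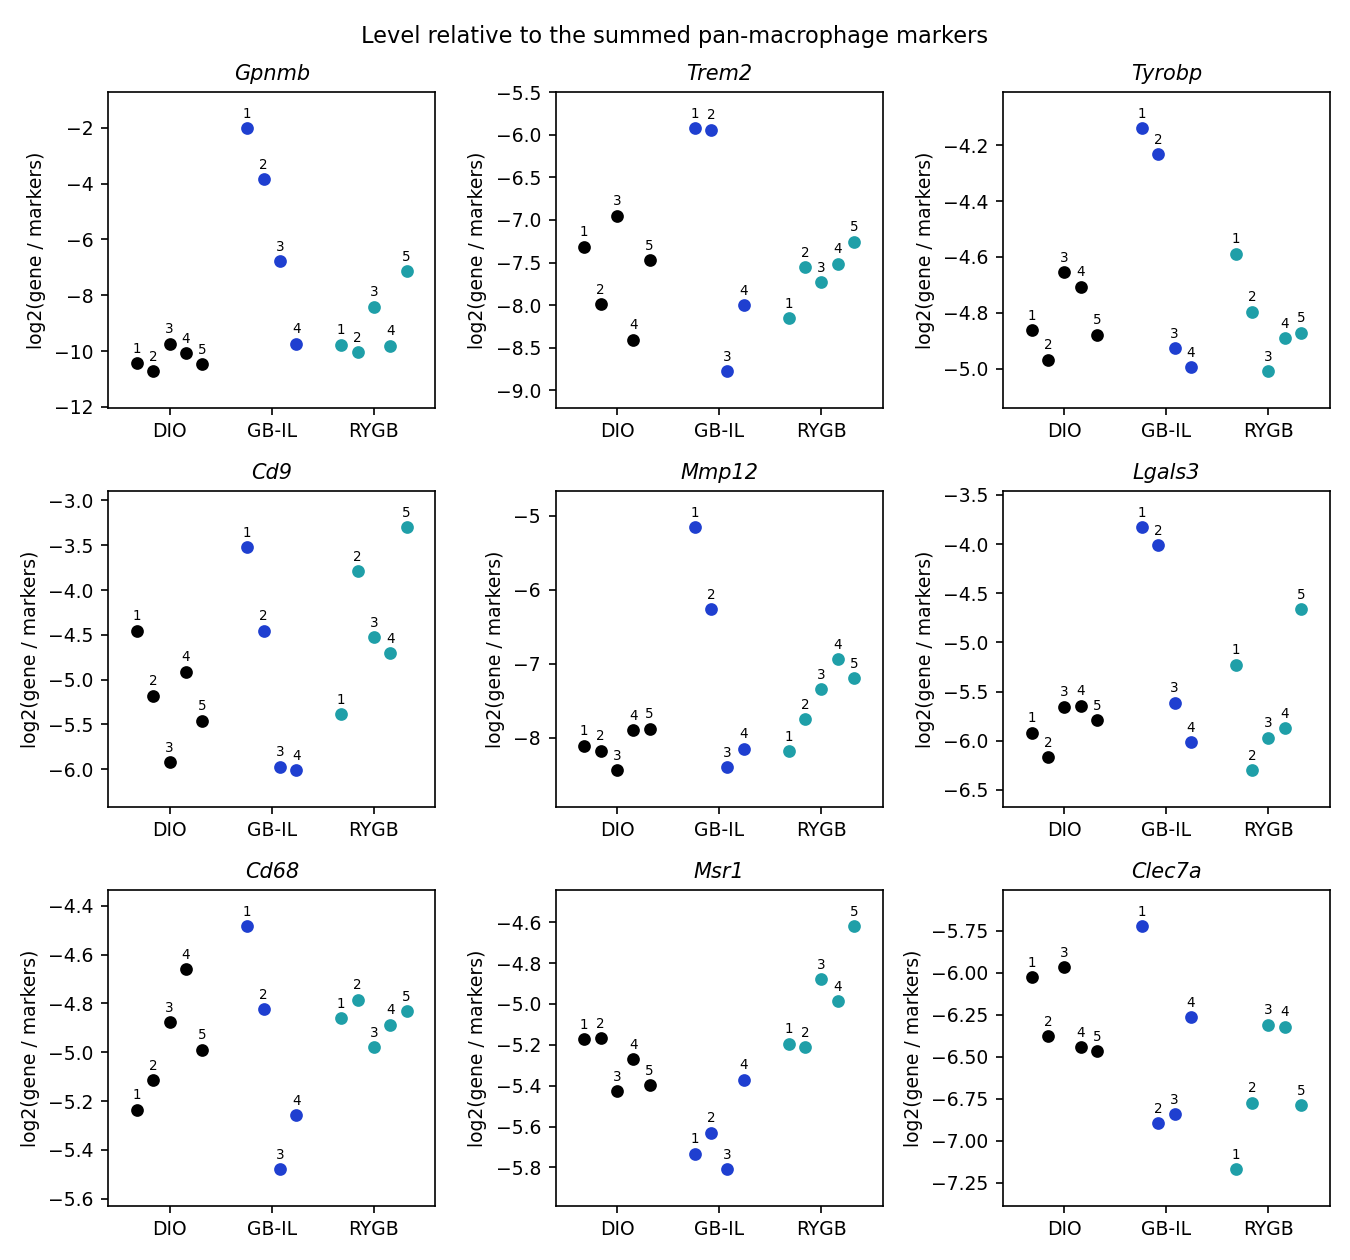
Log2 ratio of the CPM of each gene to the summed CPM of 8 pan-macrophage markers (vertical axis), per liver, with livers numbered and groups coloured as DIO (black), GB-IL (blue) and RYGB (teal). GB-IL livers 1 and 2 lie above the DIO livers for *Gpnmb*, *Trem2*, *Tyrobp*, *Mmp12* and *Lgals3*, while *Trem2* and *Tyrobp* in GB-IL livers 3 and 4 do not.

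The kind of macrophage marker differed between the GB-IL livers with high *Gpnmb*. In GB-IL liver 1, where *Gpnmb* was highest, *Adgre1* (F4/80) was at 7.20 CPM, under the DIO range of 15.2 to 35.9 CPM. *Aif1* was also under its DIO range there, *Csf1r* and *Mpeg1* were inside theirs, and the complement genes *C1qa* (119 CPM, 47.6 to 88.6 in DIO), *C1qb* (184, 53.6 to 105 in DIO) and *C1qc* were above, as was *Lyz2* (lysozyme, 244 CPM, 48.6 to 102 in DIO). *Clec4f*, a marker of resident Kupffer cells, was at 42.2 CPM there, against 129 to 202 CPM in DIO. The 8 Kupffer cell markers together summed to 345, 629, 1754 and 819 CPM in GB-IL livers 1 to 4, 453 to 689 CPM in DIO and 399 to 944 CPM in RYGB. So the highest Kupffer cell sum among GB-IL livers was in liver 3, and the lowest in liver 1. In liver 1 *Timd4*, *Cd5l*, *Folr2* and *Slc40a1* were under their DIO ranges, as *Clec4f* was, and *Vsig4* was inside its range. The sum also holds *Cd163*, and *Marco*, which was called higher in GB-IL than in DIO. Neither is given per liver here and the sum without *Marco* was not taken. The sum in liver 1 can therefore differ in direction from the single markers named. *Chil3*, made by alternatively activated macrophages, monocytes and neutrophils, was at 72.8, 128, 37.5 and 0.148 CPM in GB-IL livers 1 to 4 and at no more than 0.197 CPM in DIO, and reached 16.5 CPM in RYGB liver 5. *Adgre1*, *Clec4f* and *Chil3* were picked for mention after their values were seen.

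Markers of other cell types moved with the members. The 7 monocyte markers summed to 6.34 to 12.5 CPM in DIO, 14.1 to 154 CPM in GB-IL and 10.1 to 33.7 CPM in RYGB, and 3 of the 7 tested were called higher in GB-IL than in DIO. The 8 neutrophil markers summed to 3.31 to 6.28 CPM in DIO, with *Ly6g* at 0 in that group. In GB-IL livers 1 to 4 their sum was 121, 58.7, 367 and 3.02 CPM, and in RYGB it was 4.44 to 110.4 CPM, with RYGB liver 5 highest; 5 of the 6 that could be tested were called higher in GB-IL. The 8 cholangiocyte markers summed to 31.2 to 66.6 CPM in DIO, 322, 264, 220 and 59.4 CPM in GB-IL livers 1 to 4 and 57.8 to 68.1 CPM in RYGB, with 4 of 6 tested called higher. Most of that sum was *Spp1*, which is also on the list of other lipid-associated macrophage genes. Without it the 7 remaining markers summed to 36.0, 48.7, 15.2 and 9.89 CPM in GB-IL livers 1 to 4 and to 5.90 to 11.3 CPM in DIO, a sum taken after the values were seen. The 8 stellate cell markers were at 201 to 325 CPM in DIO, 237 to 890 CPM in GB-IL and 280 to 488 CPM in RYGB, with 1 of 8 called. The summed neutrophil, monocyte and cholangiocyte markers were thus above DIO in GB-IL livers 1 to 3, but not every marker was. In liver 4 only the monocyte sum of these was above DIO. Most of the monocyte sum in livers 1 and 2 was *Chil3*, and without it the sum was 20.7, 26.4, 74.5 and 13.9 CPM in livers 1 to 4 against 6.34 to 12.3 CPM in DIO. The chemokine receptor *Ccr2*, a defining monocyte marker, was at 0.578 and 0.678 CPM in livers 1 and 2, under the DIO range of 0.849 to 2.04 CPM. It was at 9.58 CPM in liver 3 and 3.32 CPM in liver 4. The monocyte markers *Plac8*, *F13a1* and *S100a4* were above their DIO ranges in livers 1 and 2. *Cx3cr1* was inside its range in both, and *Ly6c2* was above its range in liver 1 and inside it in liver 2. *Epcam*, a defining bile duct marker, was at 9.19 and 11.0 CPM in livers 1 and 2 and at 1.61 CPM in liver 3, where DIO livers had 0.787 to 2.04 CPM. In liver 3 *Krt7*, *Krt19*, *Muc1* and *Tff2* were above their DIO ranges, and *Sox9* and *Cftr* were inside theirs. *Ccr2* and *Epcam* were picked for mention after their values were seen. The part of these cells in the values of the 9 genes was not tested.

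Melanocytes and osteoclasts are other cells known to express *Gpnmb*. Melanocyte markers (4 genes, *Mlana* being at 0 in all DIO and GB-IL livers) summed to 2.43 to 5.39 CPM in DIO and were lowest, at 0.63 and 1.19 CPM, in GB-IL livers 1 and 2, where *Gpnmb* was highest. Most of the DIO sum was *Dct*, at 1.38 to 4.38 CPM in DIO and at 0 and 0.0565 CPM in GB-IL livers 1 and 2. *Pmel* was inside its DIO range in both livers, and *Tyr* was under its range in liver 1 and inside it in liver 2. The source of the *Gpnmb* reads was not tested. The 5 osteoclast markers, nearly all of their sum being *Acp5*, were at 99.8 to 151 CPM in DIO, 86.6 to 134 CPM in GB-IL and 77.2 to 107 CPM in RYGB. Among them *Ctsk*, the osteoclast protease cathepsin K, was at 5.15, 3.16, 1.10 and 0.59 CPM in GB-IL livers 1 to 4 and at 0.443 to 0.942 CPM in DIO. *Calcr*, the calcitonin receptor of osteoclasts, did not exceed 0.0565 CPM in any GB-IL liver. The other markers of the list did not follow *Ctsk*. *Ocstamp* was at 0.788, 3.84, 2.67 and 0.922 CPM in GB-IL livers 1 to 4 and at 1.18 to 1.81 CPM in DIO. *Acp5* was at 80.6, 120, 130 and 99.5 CPM in GB-IL livers 1 to 4 and at 98.2 to 149 CPM in DIO. *Dcstamp* did not exceed 0.144 CPM in any liver. Of these lists 2 melanocyte and 3 osteoclast markers could be tested, and edgeR called none in GB-IL against DIO (0 and 1 at an unadjusted p under 0.05, as for 23.1% of all genes). Sinusoidal endothelial markers were at 208 to 294 CPM in GB-IL and 223 to 287 CPM in DIO.

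**Figure D4:**
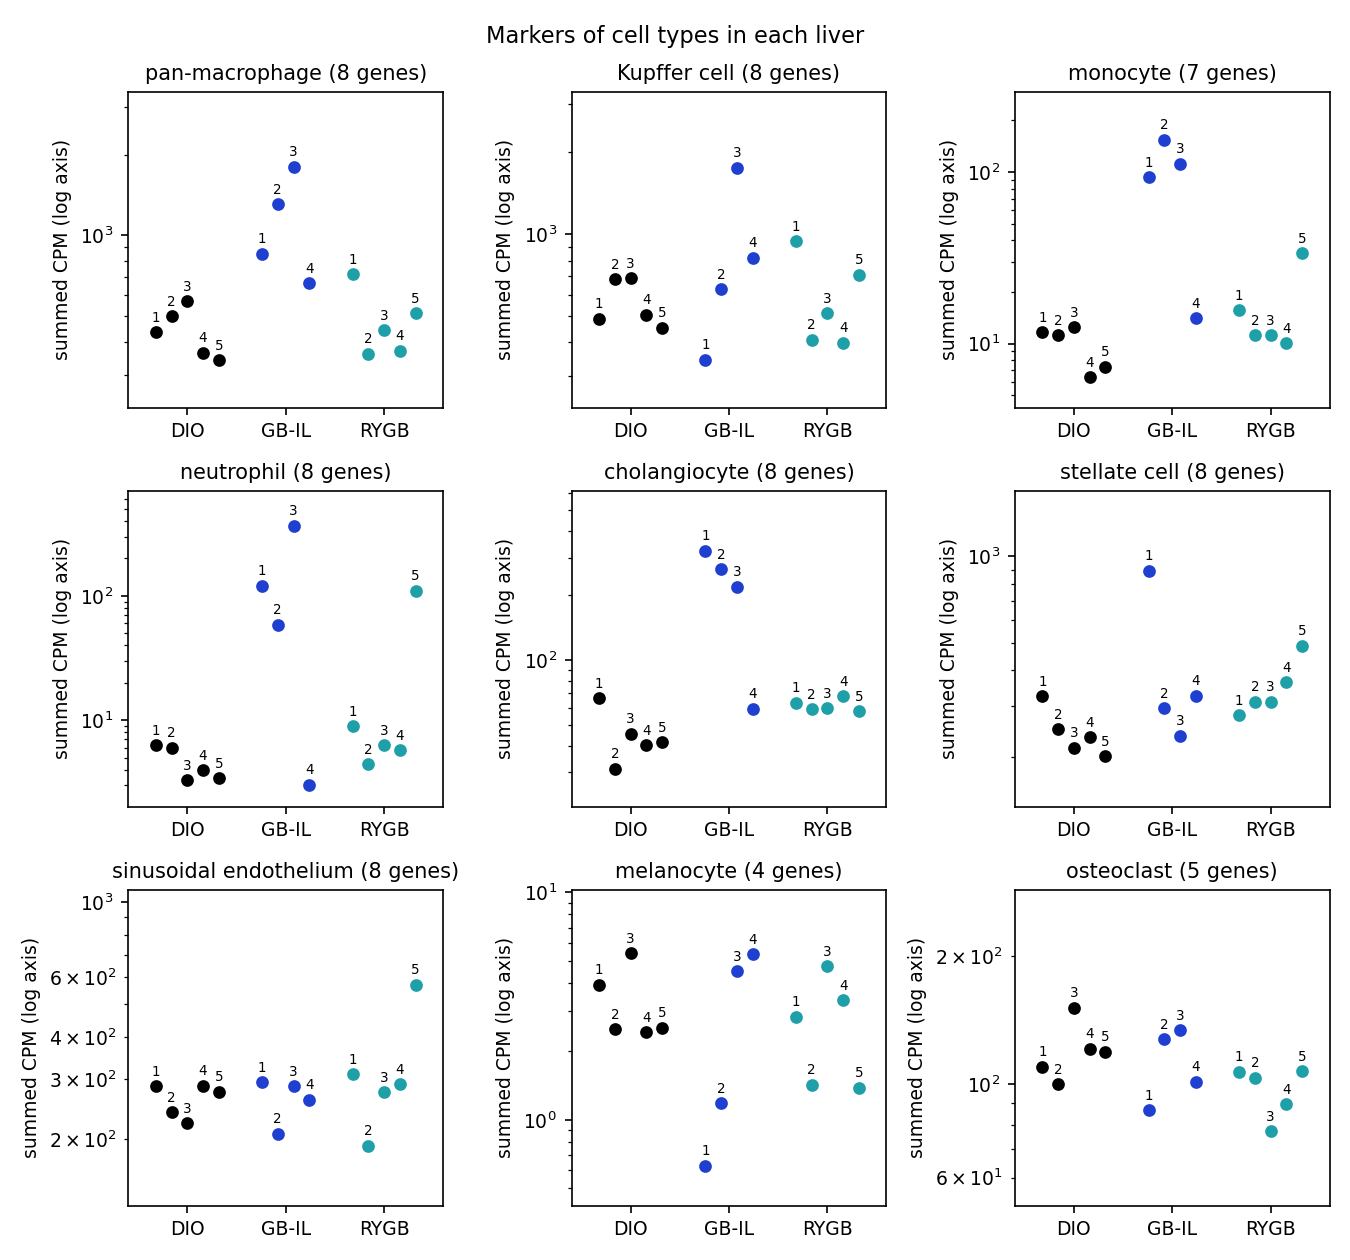
Summed CPM of the markers of 9 cell types (log axes), per liver, with livers numbered and groups coloured as DIO (black), GB-IL (blue) and RYGB (teal). Monocyte, neutrophil and cholangiocyte sums are high in GB-IL livers 1 to 3. In GB-IL liver 4 the monocyte sum (14.1 CPM) is just above the highest DIO liver (12.5 CPM). Its neutrophil and cholangiocyte sums are not above DIO. Neutrophil markers are also high in RYGB liver 5, and melanocyte sums are lowest in GB-IL livers 1 and 2.

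Beyond the members, 97 genes of 8 related lists were tested in the same fit, and 33 were called higher and 1 lower in GB-IL than in DIO, where 3.26% of all genes were called in either direction. That count was 0 when GB-IL liver 1, GB-IL liver 2 or any DIO liver was left out and in a fit of the GB-IL and DIO livers alone, and 56 when GB-IL liver 4 was left out; without RYGB liver 3, which shares in the estimate of the spread, it was 22. None of the 97 was called for RYGB against DIO by edgeR, with 9 at an unadjusted p under 0.05. DESeq2 called 2 and voom 8, and the shares of all genes for these 3 counts were 8.71%, 0.596% and 11.9%. The values below are for GB-IL against DIO with adjusted p as edgeR gave it. The lists were chosen with earlier results of these data known, and many of the genes named were picked for a small p. In this comparison, which chose the members, the adjusted p are therefore a description.

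Among 31 other genes known from lipid-associated macrophages, 13 rose and none fell, with a median log2 fold change of 0.87. *Spp1*, which encodes osteopontin and is also a bile duct gene, was at 25.1 to 55.3 CPM in DIO and at 286, 216, 205 and 49.5 CPM in GB-IL livers 1 to 4 (log2 fold change 2.36, standard error 0.366, adjusted p = 0.0278 by edgeR). *Ctss*, the lysosomal protease cathepsin S, was at 36.6 to 48.2 CPM in DIO and 195, 158, 180 and 62.7 CPM in GB-IL livers, above every DIO liver in all 4 (1.81, standard error 0.28, adjusted p = 0.0278 by edgeR). The 13 also held the lipid genes *Lpl*, which encodes lipoprotein lipase (log2 fold change 2.72), and *Fabp5*, a fatty acid carrier (3.26), the lysosomal genes *Cd63* (4.25), *Ctsl* (2.14) and *Atp6v0d2* (1.93), and *Cxcl16*, *Capg*, *Cstb*, *Vim*, *Il1rn* and *Ccl3*. *Apoe*, the lipoprotein component that hepatocytes make in bulk, was at 14548 ± 2555 CPM in the 4 GB-IL livers and 18716 ± 4833 CPM in the 5 DIO livers (mean ± SD) (-0.36, adjusted p = 0.425 by edgeR).

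The ITAM pathway that carries *Trem2* and *Clec7a* signals was represented by 18 adaptors, kinases and effectors, of which 4 rose and none fell, with a median of 0.86 and all 18 fitted values above 0. *Fcer1g*, the Fc receptor γ chain, an adaptor that parallels DAP12, was at 9.33 to 18.1 CPM in DIO and 47.7, 51.7, 53.9 and 16.9 CPM in GB-IL livers 1 to 4 (log2 fold change 1.70, adjusted p = 0.0278 by edgeR). *Card9*, which links dectin-1 to NF-κB, rose by 1.81 (adjusted p = 0.032), and *Syk* (1.23) and *Lat2* (2.36) were the other two. The Src-family kinase *Lyn* was at 25.0 ± 1.60 CPM in the 5 DIO livers and 29.1 ± 13.9 CPM in the 4 GB-IL livers (mean ± SD) (0.22, adjusted p = 0.559 by edgeR). GB-IL livers 1 to 4 had 17.1, 20.2, 47.9 and 31.0 CPM of *Lyn*, on both sides of the DIO range of 22.5 to 26.6 CPM. Of 15 other receptors of the ITAM pathway, 12 could be tested and 6 rose. *Clec4e* (mincle) rose by 4.66 and its partner *Clec4d* by 5.54 (each adjusted p = 0.0278 by edgeR). *Clec4d* was at 29.8, 14.4, 2.80 and 0.184 CPM in GB-IL livers 1 to 4 and at 0.0961 to 0.458 CPM in DIO. *Fcgr3*, an Fc receptor, rose by 1.75 (adjusted p = 0.031), and the remaining 3 were *Clec4n*, *Clec1b* and *Trem1*. *Trem1*, *Clec4d* and *Clec4e* are also expressed by neutrophils, whose markers were high in GB-IL livers 1 to 3.

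The relatives of single members did not all follow them. Among other scavenger receptors 3 of 12 tested rose: *Cxcl16* (1.55), *Scara3* (2.03, adjusted p = 0.0461) and the Kupffer cell receptor *Marco* (3.13, adjusted p = 0.0461), by edgeR. *Scarb1*, the HDL receptor of hepatocytes, was at 183 ± 21.4 CPM in the 5 DIO livers and 179.7 ± 100.5 CPM in the 4 GB-IL livers (mean ± SD) (-0.03, adjusted p = 0.959 by edgeR). That mean hides a spread: GB-IL livers 1 to 4 had 122.6, 122.2, 329.6 and 144.3 CPM of *Scarb1*, where DIO livers had 146.8 to 202.7 CPM. No other galectin of 5 tested was called, in contrast with the 2.59 of *Lgals3*: the log2 fold change was -0.64 for *Lgals9* (adjusted p = 0.229) and -0.33 for *Lgals8* (adjusted p = 0.412 by edgeR). The difference between *Lgals3* and its relatives was not tested. Among 12 other tetraspanins 4 rose, *Tspan8* (3.35), *Cd63* (4.25), *Tspan3* (1.17) and *Cd53* (1.05), and *Tspan33* fell by 0.75; *Cd81* was at -0.42 (adjusted p = 0.259 by edgeR).

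Of the enzymes and inhibitors around *Mmp12*, 5 of 8 tested rose, with a median of 1.42. *Mmp2*, a gelatinase of stromal cells, was at 1.35 to 2.39 CPM in DIO and 20.9, 8.19, 5.26 and 3.69 CPM in GB-IL livers 1 to 4 (log2 fold change 2.25, adjusted p = 0.0278 by edgeR). *Mmp9*, the gelatinase stored in neutrophils, was at 10.9, 14.01, 7.63 and 0.553 CPM in GB-IL livers and rose by 3.19 (adjusted p = 0.031), and *Mmp8*, the neutrophil collagenase, by 5.28. *Mmp14* (1.27, adjusted p = 0.0437) and the inhibitor *Timp2* (1.20) completed the 5. After RYGB *Mmp14* was at 53.8, 42.8, 41.3, 46.3 and 89.0 CPM, where DIO livers had 24.0 to 32.4 CPM (log2 fold change 0.93, adjusted p = 0.446 by edgeR). Of the MiT/TFE transcription factors, which bind the CATGTG core and drive lysosomal genes, none of 4 was called: *Tfe3* was at 0.63 (adjusted p = 0.0971) and *Tfec* at 0.78 (adjusted p = 0.163 by edgeR).

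Finally, genes were ranked by how closely their order over the 14 livers followed that of *Gpnmb*, by the mean absolute difference of ranks, which is 0 for the same order. Among 12696 genes with a mean of at least 1 CPM, *Mmp12* was the closest member at 1.14, with 5 genes closer. Both genes were chosen because they were higher in the GB-IL livers, and those livers are among the ranked. Their closeness is therefore favoured by the choice and is only a description. The other members were farther off: *Lgals3* and *Msr1* at 1.86, *Cd68* at 2.00, *Trem2* and *Cd9* at 2.14, *Tyrobp* at 2.43 and *Clec7a* at 2.86, with 1265 genes closer than *Clec7a*. The 10 genes taken as most alike were Gm15453 (0.857), *Lgmn*, Rps24-ps3, *Tspan3* and *Fhl3* (each 1.00), *Mmp12* and *Sepn1* (1.14), and *Rasgef1b*, *Dnajc8* and *Ctps2* (1.29); 17 genes lay at or under 1.29, so the last 3 were tied with others. *Lgmn*, the lysosomal protease legumain, was at 52.1 to 85.4 CPM in DIO, 256, 226, 179 and 87.8 CPM in GB-IL livers 1 to 4 and 108, 59.1, 76.6, 64.7 and 145 CPM in RYGB livers 1 to 5. Its order thus followed *Gpnmb* in having GB-IL livers 1 to 3 on top and RYGB liver 5 next. Gm15453 and the pseudogene Rps24-ps3 may share reads with near-identical copies, and their values are uncertain.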

How the data were processed

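Liver RNA was amplified (Ovation kit) and sequenced on the Illumina HiSeq. The authors used TopHat 2 for alignment to mm10, HTSeq for counting and MultiRankSeq (with DESeq, edgeR and baySeq) for testing. Whole read counts per gene, not normalized, were deposited. For the remaining versions, the annotation and the strandedness of counting, the entry is "not given in the sources used here". Of 2 library kits in the labels, neither is tied to a liver.

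The analysis ran in R 4.3.3, with edgeR 4.0.16 for the main test (filterByExpr by group, TMM scaling, quasi-likelihood fit of the 3 group means over all 14 livers, Benjamini-Hochberg adjustment over 14252 genes, FDR 0.05), with DESeq2 1.42.0 and limma 3.58.1 (voom) as alternatives. CPM are scaled by TMM over the tested genes; sums over markers use the same scale, and RPKM divide it by the length of all GENCODE M21 exons (GRCm38). Figures were drawn in Python 3.11.15. The tests were tested on simulated data before use. The 9 genes, the related lists and the markers were chosen with earlier results of these data known. Besides the 9 members, the genes named were, per list, those with the 2 smallest p-values in GB-IL against DIO and the 1 with the highest mean CPM, and the 10 genes most like *Gpnmb*; further called genes are named to complete a count, and were chosen after their values were seen. Older symbols were matched by Ensembl identifier. No 2 libraries of a group were alike within sampling noise. Other scalings, filters, tools, samples in the fit, a replicate block and leaving out each liver were tried as alternatives. *Tyrp1* of the melanocyte list was not analysed here.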

Additional observations from a re-analysis of the deposited data

Results flagged for a closer look

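Among 27 groups (9 genes in 3 groups of 4 or 5 livers), 2 held a liver far from the others by Dixon's ratio of its gap to the whole range, and chance gives about 1 in 20. *Gpnmb* was at 0.661 CPM in DIO liver 3, with a gap of 0.765 of the range, and *Lgals3* was at 11.2 CPM in the same liver, with a gap of 0.775. DIO liver 3 was the highest DIO liver for 6 of the 9 genes. For *Gpnmb* the value rests on 13 reads, where the other DIO livers had 5 or 6.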

How the results depend on the processing

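The number of the 9 members called in GB-IL against DIO (7) was also 7 under both other scalings, both other filters and voom, and 9 by DESeq2, but 0 in a fit of the 2 compared groups only. Leaving out 1 liver at a time gave 0 to 9. The 7 of voom held *Msr1* in place of *Trem2*, and *Trem2* was also not called when any RYGB liver was left out. In GB-IL against RYGB (0) the number of members called was 2 without a filter, 7 by DESeq2 and 3 by voom, and 0 to 7 leaving out 1 liver. In RYGB against DIO (0) it was 1 by voom (*Cd9*, 0.97, adjusted p = 0.0488) and 0 to 0 leaving out 1 liver. For the related lists, the 34 calls in GB-IL became 0 with the 2 compared groups only and 0 to 56 leaving out 1 liver, and the 0 calls in RYGB became 2 by DESeq2, 8 by voom and 1 with the 2 compared groups only, and 0 to 0 leaving out 1 liver. Calls on the ratios to macrophage markers were 0 to 0 leaving out 1 liver. Over all genes, the 465 calls in GB-IL against DIO became 1164 higher and 183 lower by DESeq2, 0 with the 2 compared groups only, 1 with the replicate block, and from 0 to 2228 higher and 1344 lower (without GB-IL liver 4) leaving out 1 liver. The 0 in RYGB against DIO became 60 higher and 34 lower by DESeq2, 867 and 823 by voom and 17 and 16 with the 2 compared groups only, and the 0 in GB-IL against RYGB became 49 and 2 without a filter, 693 and 191 by DESeq2, 111 and 4 by voom and 1948 and 1172 without GB-IL liver 4. The cause was not tested.

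The replicate numbers did not pair the livers: deviations of same-numbered livers correlated at -0.381 to 0.381, and 1 of 14 livers correlated best with its own number. With the replicate block 0 members and 0 list genes were called in GB-IL against DIO, and *Trem2* in RYGB against DIO was at 0.056.

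Values near 0 in RYGB against DIO changed sign. The log2 fold change of *Trem2* was 0.14 by voom and -0.23 to 0.31 leaving out 1 liver, and that of *Tyrobp* -0.15 to 0.29. The ratio to macrophage markers of *Cd68* was -0.031 over *Csf1r* alone, those of *Trem2* and *Tyrobp* were 0.070 and 0.069 over the Kupffer cell markers, and leaving out 1 liver gave -0.21 to 0.15 for *Trem2*, -0.078 to 0.027 for *Tyrobp* and -0.0071 to 0.40 for *Lgals3*. The 9 fold changes in GB-IL kept their sign under the other scalings and filters and with 1 liver left out. With 5 to 13 reads per DIO liver, the fold of *Gpnmb* rests on few counts.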
